A study of Homo sapiens with 6 samples.

Results

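The gene expression of TE13R, a radioresistant line, was compared with that of its parental line TE13 at 0 h, the time point with which the irradiation series begins. TE13 was grown out of a human squamous carcinoma of the esophagus, and the clone TE13R was derived from it by repeated fractions of irradiation. The comparison rests on 2 of the 6 arrays of the series, which are those whose titles name TE13R 0h and TE13 0h. The other 4 arrays are those of the same lines at 8 h and 24 h after irradiation, and they are used here to show which differences at 0 h were also seen later. Whether the 0 h RNA was taken before or just after irradiation is not settled by the sources. The array labels say 0h of radiation, the legend of the array panel counts 0 h among the times after irradiation, and that of the RT-PCR panel has a first time point before it. All 6 arrays are 1-colour Illumina Human-6 V3 arrays, 1 for each line at each time. The methods speak of profiling in triplicate, and it is not stated whether a deposited value is 1 hybridization or a summary of several. As deposited there is no replicate at 0 h, no test was made, and every value below describes a pair of arrays. The part of the line, of these cultures and of the RNA samples in a difference cannot be told apart.

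Stratified squamous epithelium, such as that of the esophagus, is built from a basal layer of dividing cells marked by KRT5, KRT14 and KRT15. Cells that leave this layer stop dividing, and in the esophagus they switch to the keratins KRT4 and KRT13 and to small proline-rich proteins that are cross-linked into the cell's envelope. Squamous cancer cell lines keep part of this program. Ionizing radiation acts mainly through breaks in DNA and through reactive oxygen species, so the enzymes that detoxify reactive aldehydes and peroxides, the cell cycle genes and the stress response genes are the groups usually examined in radioresistant lines.

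The deposited values are intensities on a linear scale for 48803 probes per array. A detection limit of 20.2 was set from the values below 0, and 37.3% of the probes lay above it on each array. Of 18589 genes with a probe, 11427 had their brightest probe above the limit on at least 1 of both 0 h arrays, 10447 of them on both, 486 on the TE13R array only and 494 on the TE13 array only. These 11427 genes are called measured below. Differences are given as log2(intensity + 16) in TE13R minus that in TE13, a scale that understates the fold of dim genes, and folds are ratios of intensities. Where the dimmer array lay below the limit, the fold was taken against the limit and is given as a lower bound. The squamous label fitted the markers. Of 8 squamous markers with a probe, 6 lay above the limit in TE13 and 7 in TE13R at 0 h. KRT5 was at 3732 in TE13 and 9478 in TE13R, and IVL, the envelope protein involucrin, lay below the limit on all 6 arrays. Of 7 markers of columnar epithelium only CLDN18 was above the limit at 0 h, at 42.3 in TE13 and 41.0 in TE13R. Of 6 immune markers, PTPRC, CD3D and CD3E lay below the limit on all 6 arrays and MS4A1 on both 0 h arrays. CD14 was at 33.7 in TE13 and 15.8 in TE13R at 0 h, and CD68, a lysosomal protein of macrophages that other cells also express, was at 1263 and 2386. Of 3 endothelial markers CDH5 lay below the limit on all 6 arrays, PECAM1 was at 29.6 and 34.9 at 0 h, and VWF was at 44.3 and 940. The summed intensity at 0 h was 1316 in TE13 and 2425 in TE13R for the immune markers and 73.9 and 975 for the endothelial ones, and their part in the results was not tested. Of the 6 fibroblast markers only COL1A1 in TE13 (42.3) and LUM in TE13R (30.7) were above it at 0 h.

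At 0 h, 827 measured genes (7.24%) were at least 2-fold higher in TE13R and 657 (5.75%) were at least 2-fold lower, so that 13.0% of the measured genes were at least 2-fold apart. At least 4-fold, 157 genes (1.37%) were higher and 98 (0.858%) were lower. The median difference over the measured genes was -0.01, a value that follows from the common scale of the deposited arrays. The middle 50% of the genes lay between -0.39 and 0.38. The spread over the same genes was smaller at the later times, with an interquartile range of 0.77, 0.51 and 0.62 in order of time. These genes were chosen by their 0 h values, and the part of that choice in the smaller later spread was not tested. By the same rule 584 of the genes measured at 8 h (5.12%) were higher and 714 (6.26%) lower, 11.4% in all, and of those measured at 24 h 722 (6.26%) were higher and 854 (7.4%) lower, 13.7% in all.

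Most of the 0 h differences were not found again at the same size. Of the 1484 genes that were 2-fold apart at 0 h, 392 (26.4%) were 2-fold apart the same way at 8 h, 413 (27.8%) at 24 h and 279 (18.8%) at both. Starting from 8 h instead, 392 of 1298 genes (30.2%) were 2-fold apart the same way at 0 h and 472 (36.4%) at 24 h. Of the genes lower in TE13R 163 of 657 (24.8%) were 2-fold lower at all 3 time points, and of the higher ones 116 of 827 (14.0%) were 2-fold higher at all 3. Among the differences of at least 4-fold this was 71 of 98 lower genes (72.4%) and 62 of 157 higher genes (39.5%). The 163 and 116 genes are 1.43% and 1.02% of all measured genes. In the other direction, 373 of the 827 higher genes (45.1%) and 268 of the 657 lower genes (40.8%) were under 1.5-fold apart, or had turned, at both later times.

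**Figure D1:**
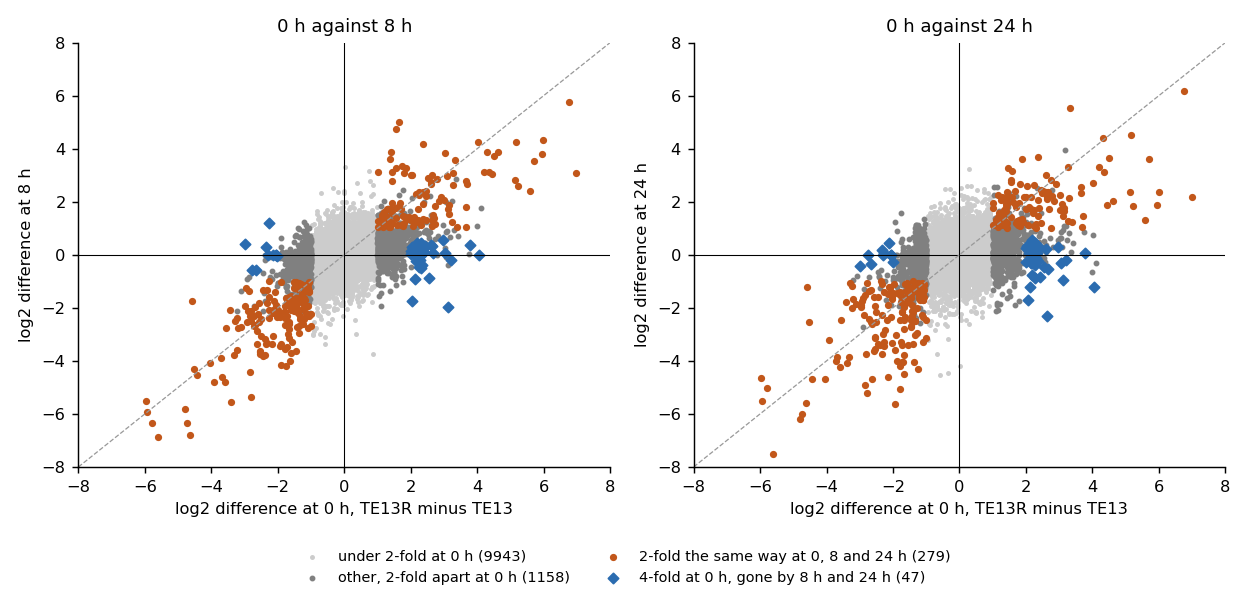
Each point is 1 of 11427 measured genes, with its log2 difference between TE13R and TE13 at 0 h on the x axis and that at 8 h (left) or 24 h (right) on the y axis, and the dashed line marks equal differences. The 279 genes in orange were at least 2-fold apart the same way at all 3 time points, and the 47 genes drawn as diamonds were at least 4-fold apart at 0 h and under 1.5-fold apart or turned at both later times.

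Keratins and other products of squamous cells were among the largest differences upward in TE13R, and KRT13 had the largest log2 difference. The intensity of KRT13 was 246 in TE13 and 33269 in TE13R at 0 h, a log2 difference of 6.99 and a fold of 135. The difference was 3.09 at 8 h and 2.19 at 24 h, since KRT13 was at 2465 in TE13 and 11299 in TE13R by 24 h. KRT4, its partner keratin, was below the limit in TE13 and at 1004 in TE13R, at least 49.8-fold higher. KRT15, a basal keratin, was at 89.2 in TE13 and 5058 in TE13R, 56.7-fold higher, and by 24 h it was at 750 and 1872. S100A8, a subunit of calprotectin, was at 1.25 and 627 (at least 31.1-fold). SPRR1A, a small proline-rich protein, was at 379 in TE13R and below the limit in TE13 (at least 18.8-fold). For all 5 of these genes the difference was smaller at 24 h than at 0 h.

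Other large differences upward were at least 4-fold at all 3 time points, and their size varied between them. GPC5, the cell-surface proteoglycan glypican-5, was at 21.5 in TE13 and 4074 in TE13R at 0 h, a fold of 189. Its log2 differences were 6.77, 5.75 and 6.18 in order of time, and its TE13 intensity was no higher than 28.5 at any time. ALDH1A1, a retinaldehyde dehydrogenase, was at 6.27 in TE13 and 1150 in TE13R (at least 57.0-fold), and its second probe was at -5.36 and 90.8. The ALDH1A1 difference was 5.71 at first and smaller later (3.52 and 3.60). GSPT2, a translation termination factor, was below the limit on all 3 TE13 arrays and at 559, 380 and 354 in TE13R at 0, 8 and 24 h. ZNF22, a zinc finger protein, was at 4.27 and 442 at 0 h, with 330 in TE13R and a value below 0 in TE13 on its second probe. CTNNA3, an alpha-catenin of cell junctions, was at 1.47 and 308 (at least 15.3-fold), with 4.21, 3.12 and 3.32 in order of time. The sulfatase gene ARSD was at -5.10 and 302, while 1 of its 2 other probes was only at 17.2 and 29.5. With the mean of all its probes the 0 h difference of ARSD was 2.37 instead of 4.31, and with an offset of 1, where another probe is the brightest, it was 0.74. PPP2R2C, a regulatory subunit of protein phosphatase 2A, and SIRPA, the receptor of CD47, were also 4-fold higher throughout. The difference was smaller at 24 h for PPP2R2C (4.03, 4.27 and 2.71) and larger for SIRPA (3.34, 3.57 and 5.55).

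The remaining genes among the 15 largest were GPR15LG, DEFB1, GJB2 and IGFBP3. GPR15LG, the ligand of the receptor GPR15, was at -2.41 in TE13 and 978 in TE13R. DEFB1, a beta-defensin of epithelia, was at -1.51 and 544, and was itself above the limit in TE13 at 8 h (103) and 24 h (244). GJB2, connexin 26 of gap junctions, was at 110 and 2697, 24.6-fold higher, and its difference went from 4.43 at 0 h to 1.90 at 24 h. IGFBP3, a carrier of insulin-like growth factors, was at 116 and 2247 at 0 h on one probe and at 69.0 and 1208 on the other. At 24 h IGFBP3 was at 840 in TE13 and 675 in TE13R, so that its 0 h difference of 4.10 became -0.31.

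**Figure D2:**
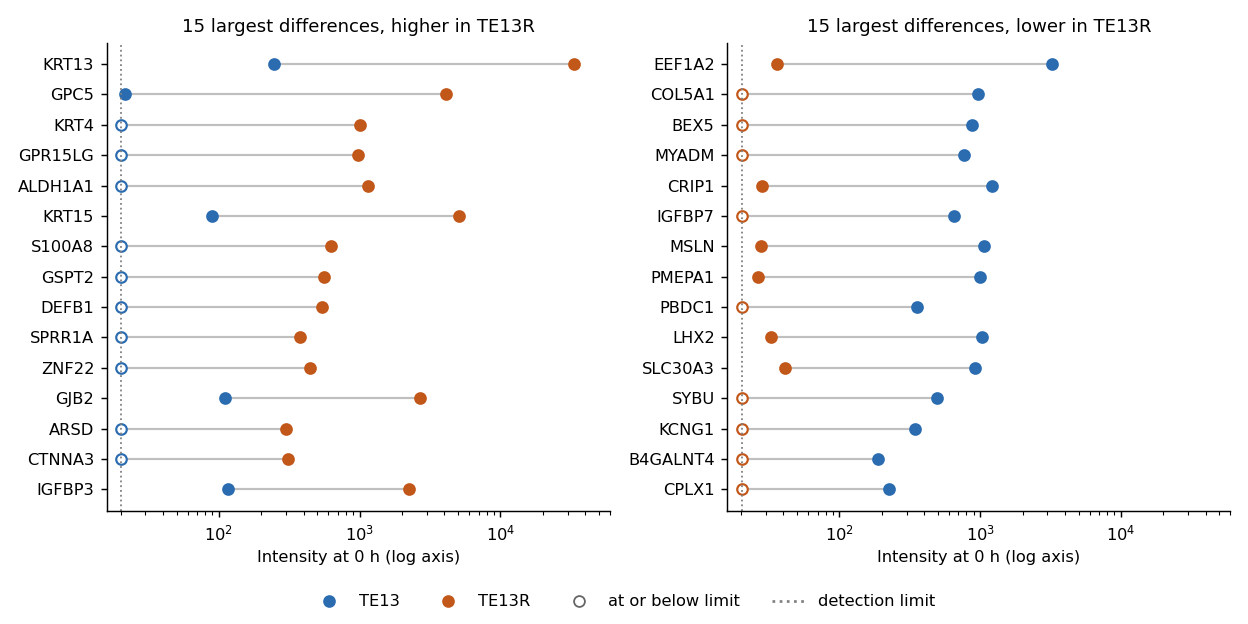
Intensity at 0 h on a log axis of the 15 genes with the largest log2 differences in each direction, with TE13 in blue and TE13R in orange, 1 array each. Open circles are values at or below the detection limit of 20.2 (dotted line) and are drawn at it. Among the higher genes KRT13 reaches 33269 in TE13R, and among the lower genes EEF1A2 reaches 3225 in TE13.

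The largest differences downward were in genes of other kinds, and 14 of the 15 were at least 4-fold lower at both later times as well. EEF1A2, a translation elongation factor of nerve and muscle, was at 3225 in TE13 and 35.8 in TE13R at 0 h, 90.1-fold lower, and over the time points it was apart by -5.97, -5.50 and -4.63 on the log2 scale. COL5A1, a fibrillar collagen chain, was at 970 in TE13 and below 0 in TE13R, at least 48.0-fold lower, with -5.94 at 8 h and -5.52 at 24 h. MYADM, a membrane protein gene, was at 769 in TE13 and below 0 on all 3 TE13R arrays, and its TE13 intensity was 1878 at 8 h and 2874 at 24 h. MYADM was at least 38.1-fold lower at 0 h, and the other 2 probes of the gene were below the limit. IGFBP7, a secreted binding protein, was at 651 and 8.96, at least 32.2-fold lower. MSLN, which encodes the surface protein mesothelin, was at 1061 and 27.5. CRIP1, a LIM domain protein, was at 1213 and 28.3 at 0 h and at 7483 and 85.5 at 24 h. BEX5 was at 873 and below 0 at 0 h, at least 43.2-fold lower. LHX2, a LIM homeobox transcription factor, was at 1034 and 32.5.

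The exception was PMEPA1, an inhibitor of TGF-beta signalling. It was at 1002 in TE13 and 26.3 in TE13R at 0 h and at 97.6 and 32.6 at 24 h, and its log2 differences were -4.59, -1.73 and -1.23 at the 3 time points. A second PMEPA1 probe was at 674 and 30.1 at 0 h. SLC30A3, a zinc transporter of synaptic vesicles, CPLX1, a complexin, SYBU, KCNG1, a potassium channel subunit, B4GALNT4, a glycosyltransferase, and PBDC1 made up the rest of the 15 largest. Their log2 differences at 0 h ran from -4.53 in PBDC1 to -3.60 in CPLX1, and each of these 6 was at least 4-fold lower at 8 h and 24 h as well.

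The differences that were large at 0 h and then gone were mostly in genes higher in TE13R. Of the genes at least 4-fold apart at 0 h, 157 were higher and 98 lower. Among them 37 higher (23.6%) and 10 lower ones (10.2%) were under 1.5-fold apart or turned at both later times. GCNT3, a branching enzyme of mucin-type glycans, was at 398 in TE13 and 5690 in TE13R at 0 h, then at 112 and 149 at 8 h and at 1608 and 1697 at 24 h. GDF15, a secreted stress cytokine, was at 514 and 4917 at 0 h, 848 and 748 at 8 h, and 23457 and 20486 at 24 h. HSPA6, an inducible HSP70, was at 113 and 1049 at 0 h and at 6292 and 5074 at 24 h. FBXO32, a ubiquitin ligase subunit, was at 1068 and 6920 at 0 h, and a second probe at 210 and 896. At 8 h FBXO32 was at 169 and 179, and at 24 h at 6193 and 4318. GBP2, an interferon-inducible GTPase, was at 77.8 and 801 at 0 h and was lower in TE13R at 8 h (131 and 21.2). EDN2, the peptide endothelin-2, was at 250 in TE13R at 0 h, at 21.3 in TE13 at 24 h and below the limit on the other 4 arrays. RAB26, a small GTPase, was at 24.0 and 295 at 0 h and at 229 and 288 at 24 h. PIK3IP1, an inhibitor of PI3-kinase, was at 20.1 and 211 at 0 h and at 172 and 22.3 at 24 h.

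In these 37 genes the lines came together by different steps at the 2 later times. From 0 h to 8 h the TE13R level was the one that moved further in 26 genes, with a median log2 change of -2.35 against 0.65 in TE13. From 0 h to 24 h the TE13 level moved further in 27 genes, with a median change of 2.48 against -0.03 in TE13R, and 29 of the 37 were at least 2-fold higher in TE13 at 24 h than at 0 h. The genes were chosen for a high TE13R value or a low TE13 value at 0 h, so a movement back from that array is part of the choice. Of the 10 lower genes, 8 were above the limit on the TE13 0 h array and on no other. These were dim, with ZNF350 at 110, ADGRL2 at 92.4, ZNF365 at 89.4 and ZNF93 at 80.3 in TE13 at 0 h.

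**Figure D3:**
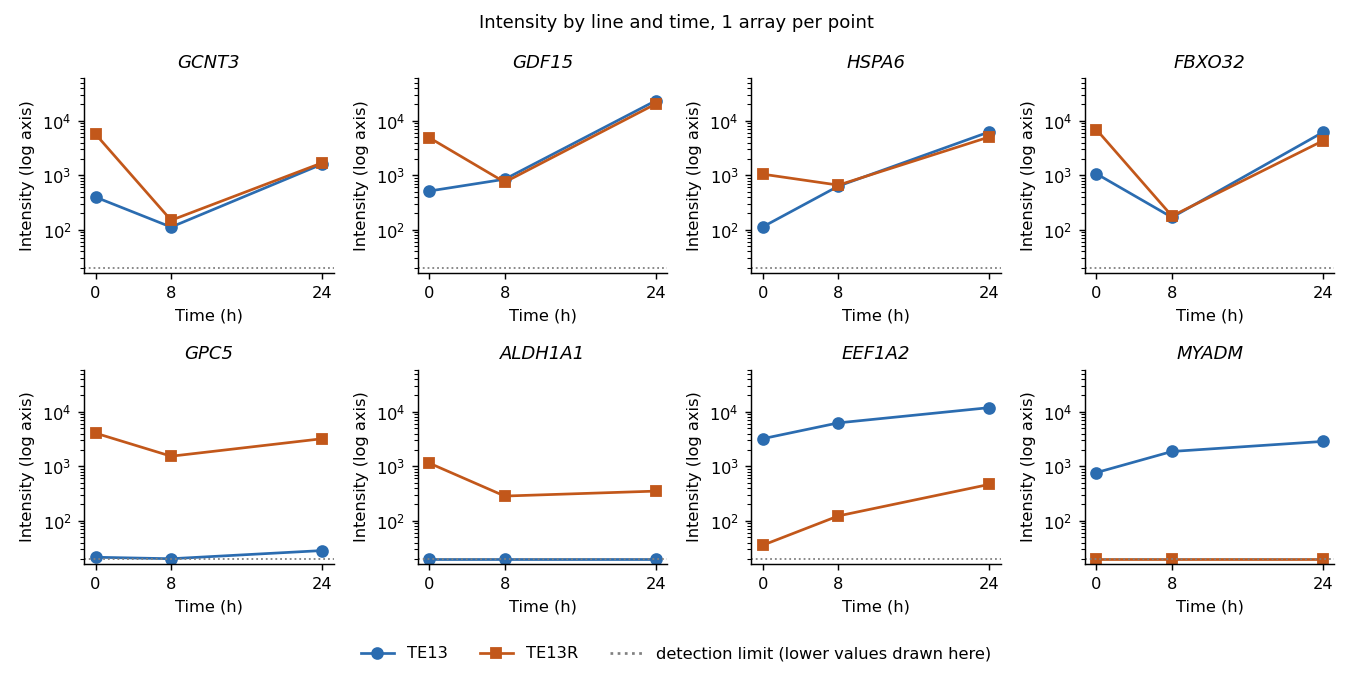
Intensity on a log axis at 0, 8 and 24 h in TE13 (blue) and TE13R (orange), 1 array per point, with values below the detection limit drawn at the dotted line. In the upper row GCNT3, GDF15, HSPA6 and FBXO32 differ at 0 h only, and in the lower row GPC5, ALDH1A1, EEF1A2 and MYADM differ at all 3 time points.

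Genes of squamous differentiation were higher in TE13R as a group at 0 h. Of 34 measured genes of this list, 18 were at least 2-fold higher (52.9%, against 7.24% of all measured genes), 2 were lower and 14 were neither. Their median differences for 0, 8 and 24 h were 1.18, 0.30 and 0.28, against -0.01, 0.01 and 0.04 over all measured genes. The list was written with earlier results of these data known. It holds KRT13, KRT4, S100A8 and SPRR1A, which are among the 15 largest differences upward, so its share and median partly follow from that choice. Besides the genes above, S100A9, the partner of S100A8, was just below the limit in TE13 and at 454 in TE13R, at least 22.5-fold higher. KLK13, a kallikrein protease, was at 316 and 2735, with differences of 3.05, 1.99 and 0.62 at 0, 8 and 24 h. SPRR1B was at 34.1 and 297 and kept a difference of 2.18 at 24 h. KRT1, a keratin of keratinized epithelium, was at 72.2 in TE13R at 0 h and below the limit in both lines at 24 h. TGM1, the transglutaminase that cross-links the envelope, was at 35.5 and 125 at 0 h and at 487 and 466 at 24 h. The 2 lower genes, KRT80 with -2.12 and SERPINB4 with -2.13, include a keratin that was lower at all 3 time points (KRT80) and a dim gene that was above the limit only in TE13 at 0 h (SERPINB4). At 8 h 10 of the 34 genes were 2-fold higher and at 24 h 8. Over all genes measured at those times 5.12% and 6.26% were 2-fold higher.

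Of 24 measured genes of the basal layer, 5 were higher (20.8%, against 7.24% of all measured genes) and 2 lower (8.33%, against 5.75%), with a median of 0.11 at 0 h. KRT14, a basal keratin, was at 3085 in TE13 and 957 in TE13R at 0 h and at 7598 and 1069 at 24 h, and its partner KRT5 had a difference of 1.34 at 0 h and 0.12 at 24 h. The other basal genes that were 2-fold higher were PITX1 (2.14), FGFBP1 and the transcription factor SOX2, which was at 270 and 719. KRT19, a keratin of simple epithelium that many carcinomas express, was at 6599 and 28105 at 0 h and at 21615 and 19302 at 24 h. FOXA1, a pioneer transcription factor, was at 925 and 3926 and remained above 2-fold later (1.08 at 8 h and 1.13 at 24 h). CEACAM6, an adhesion molecule, was at 31.1 and 124 at 0 h and more than 3 log2 units apart at 8 h and 24 h (3.29 and 3.15).

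Genes of the cell cycle were lower in TE13R at 0 h. Of 76 measured genes of G2 and mitosis, none was 2-fold higher and 21 were 2-fold lower (27.6%, against 5.75% of all measured genes), and 4 of the 76 had a difference above 0. The medians for 0, 8 and 24 h were -0.74, 0.03 and -0.17. At 8 h none of the 76 was 2-fold lower, against 6.26% of all genes measured then. CDK1, the mitotic kinase, was at 6709 in TE13 and 2866 in TE13R at 0 h, at 2039 and 1934 at 8 h and at 1790 and 1529 at 24 h. TOP2A, a topoisomerase of mitotic chromosomes, was at 20053 and 8761 at 0 h and at 2994 and 2730 at 8 h. CKAP2, a spindle protein, was at 3675 and 1096 (-1.73), and its second probe was at 242 and 71.1. HMMR was at 4473 and 1607 (-1.47), with 1008 and 363 on its second probe. AURKA, the Aurora A kinase, was at 18556 and 7679. CCNB1, cyclin B1, was at 500 and 195 at 0 h and at 98.3 and 143 at 24 h. In each of these 6 genes the level was lower at 8 h than at 0 h in both lines, and the TE13 0 h array was the highest of the 6.

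The genes of G1/S control and replication were lower by less. Of 72 measured, 3 were 2-fold lower (4.17%, against 5.75% of all measured genes) and none higher, 6 had a difference above 0, and the medians for 0, 8 and 24 h were -0.39, -0.02 and 0.08. CCND1, cyclin D1, was at 8847 and 2303 at 0 h (-1.93), and was still lower at 8 h (-0.70) and 24 h (-0.91). HELLS, a chromatin remodeller of replicating cells, was at 556 and 208, and UHRF1, which maintains DNA methylation, was at 13825 and 5989. MCM2, a subunit of the replicative helicase, was at 7699 and 6356 (-0.28). Histone genes pointed the other way. Of 32 measured, 5 were higher (15.6%, against 7.24% of all measured genes), none was lower, and the median was 0.46 at 0 h and 0.01 at 8 h. H2AC18 was at 613 and 2179 on one probe and at 487 and 1866 on another. H2AC20 was at 819 and 2380, and at 8 h it was at 5820 and 5377. Genes of double-strand break repair had a median of -0.45 at 0 h, and of -0.01 at 8 h. With 2 of 40 higher and 4 lower, its counts were near those of all measured genes (7.24% and 5.75%). Among them TOPBP1 was at 810 and 287 and NBN, a subunit of the MRN complex that binds broken ends, was at 2032 and 898. FANCG, 1 of the 2 higher genes, was at 2089 and 4396.

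Promoters of mitotic genes often hold the CHR element, a site of repression outside mitosis, with the letters TTTGAA. It was searched for on both strands in the RefSeq promoters of GRCh38.p14, which run from 250 bases before to 50 bases after each start. The letters were found in 44 of 64 measured genes of G2 and mitosis that have a promoter there (68.8%) and in 15.4% of all 27195 promoters. They were in 13 of the 18 genes that were 2-fold lower and in 31 of the 46 that were not. The sites of CDK1 and HMMR are shown because both genes were among those lower at 0 h. Capitals mark the element.
CDK1, chr10:60778155-60778190, plus strand: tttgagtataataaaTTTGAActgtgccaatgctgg
HMMR, chr5:163460589-163460630, plus strand: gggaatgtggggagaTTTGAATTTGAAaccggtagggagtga

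Among interferon-stimulated genes more were lower than higher in TE13R at 0 h. Of 58 measured, 16 were at least 2-fold lower at 0 h (27.6%, against 5.75% of all measured genes). Another 2 were higher (3.45%, against 7.24%) and 40 were neither. The medians for 0, 8 and 24 h were -0.35, -0.89 and -0.67. Of the 58, 26 were 2-fold lower at 8 h, 15 at 24 h and 5 at all 3 time points. Over all measured genes 6.26% were lower at 8 h, 7.4% at 24 h and 1.43% at all 3. MX1, a GTPase that blocks viruses, was at 38357 in TE13 and 17271 in TE13R at 0 h and at 13186 and 2853 at 8 h. MX2 was at 2839 and 1029 at 0 h and at 1159 and 78.5 at 8 h. IFI44L was at 5616 and 1805 at 0 h, a difference of -1.63 on this probe and -1.62 on a second, and at 281 and 2.59 at 8 h. IFI44 was at 11367 and 3464, and EPSTI1 was at 4372 and 1054. Both lines were at their highest at 0 h in MX1, IFI44, IFI44L and EPSTI1. IFI27, among the brightest of the list, was at 30604 and 41659, higher in TE13R at 0 h (0.44) and lower at 8 h (-0.54). GBP2 and ISG20 were the 2 higher genes, with 3.12 and 1.15. Of 19 measured genes of antigen presentation 1 was higher (5.26%, against 7.24% of all measured genes), HLA-DMA with 1.48. None was 2-fold lower, while HLA-B had -0.98.

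The interferon-stimulated response element was searched for as GAAA, 2 bases and GAAA, on both strands. It was in 29 of 45 measured genes of the list with a promoter (64.4%) and in 3.65% of all promoters. It was in 11 of the 14 genes that were 2-fold lower and have a promoter, and in 18 of the other 31, ISG20 among them. The median 0 h difference was -0.85 in the genes with the element and -0.29 in those without it. The sites of EPSTI1, IFI44, MX1 and CXCL10, all 2-fold lower, and of ISG20, which was 2-fold higher, are shown with the element in capitals, and it reads as TTTC, 2 bases and TTTC where it lies on the other strand.
EPSTI1, chr13:42992267-42992306, minus strand: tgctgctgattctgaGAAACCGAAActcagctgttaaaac
IFI44, chr1:78649756-78649795, plus strand: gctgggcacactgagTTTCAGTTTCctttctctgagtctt
MX1, chr21:41420554-41420593, plus strand: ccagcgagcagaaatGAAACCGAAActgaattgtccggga
CXCL10, chr4:76023694-76023733, minus strand: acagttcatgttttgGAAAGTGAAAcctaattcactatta
ISG20, chr15:88638932-88638971, plus strand: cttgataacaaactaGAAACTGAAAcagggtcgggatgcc

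Chaperones of the endoplasmic reticulum were higher in TE13R at 0 h. Of 29 measured, 8 were 2-fold higher (27.6%, against 7.24% of all measured genes) and 1 lower, and the medians for 0, 8 and 24 h were 0.42, 0.08 and -0.00. HSPA5, the main chaperone (BiP), was at 750 in TE13 and 2470 in TE13R at 0 h, at 474 and 454 at 8 h and at 2529 and 1545 at 24 h. SDF2L1 was at 2383 and 7964 at 0 h and at 36853 and 24620 at 24 h. MANF, a secreted protein induced by this stress, was at 7385 and 19889. XBP1, a transcription factor of the unfolded protein response, was at 6560 and 13584 at 0 h and at 12627 and 12277 at 24 h. DNAJB9, a co-chaperone, was at 160 and 1163 and kept a 2-fold difference at 8 h (1.16) and 24 h (1.02). HSP90B1 and CANX were not higher, with -0.37 and -0.16. Genes of the ATF4 response had 7 of 43 higher (16.3%, against the same 7.24%) and 2 lower with a median of 0.14. DDIT3, the transcription factor CHOP, was at 200 and 921 at 0 h and at 7210 and 7536 at 24 h. ASNS, asparagine synthetase, was at 1428 and 5912, and TRIB3 was at 1572 and 5009. ATF3 was at 277 and 928, with a difference of 0.84 when all of its probes were averaged.

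The endoplasmic reticulum stress element, CCAAT followed after 9 bases by CCACG, was in 7 of 27 measured chaperone genes with a promoter (25.9%) and in 22 of all 27195 promoters (0.0809%). Among the genes 2-fold higher it was in 2 of 8, HSPA5 and XBP1, and among the others it was in 5 of 19. Both sites are shown with the element in capitals.
HSPA5, chr9:125241376-125241424, minus strand: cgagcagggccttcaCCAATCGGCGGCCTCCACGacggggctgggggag
XBP1, chr22:28800588-28800636, minus strand: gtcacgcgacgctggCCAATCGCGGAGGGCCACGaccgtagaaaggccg

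Among heat shock proteins 4 of 31 were higher (12.9%, against 7.24% of all measured genes) and 1 lower at 0 h, and the medians for 0, 8 and 24 h were -0.25, 0.19 and 0.30. CRYAB, a small heat shock protein, was at 4.26 in TE13 and 163 in TE13R, and HSPB8 was at 18.9 and 178. CHORDC1, the lower gene, was at 695 and 281, and 21 of the 31 genes lay below 0 at 0 h. HSPB8 kept a difference of 2.42 at 8 h and 2.34 at 24 h.

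AKR1C3, the aldo-keto reductase on which the study centres, was bright and nearly equal in both lines at 0 h. Its probe was at 38854 in TE13 and 37103 in TE13R, a difference of -0.07. It was at 25136 and 26809 at 8 h and 30845 and 31318 at 24 h. The study reports elevated AKR1C3 in its radioresistant lines from arrays, RT-PCR and Western blots. The deposited values of this probe did not show it for TE13R. The highest value of any probe at 0 h was 62242 in TE13 and 64408 in TE13R. Whether differences are understated at such brightness was not tested. AKR1C2, a close paralog, was at 51195 and 51297 on its brightest probe. The AKR1C1 probe lay below the limit on every array, at -8.38 in TE13 and -4.19 in TE13R at 0 h. The dimmer AKR1C2 probes pointed both ways, with -1.21 on one and 1.02 on another. These genes are nearly identical in sequence, so signal can be shared between their probes. Of 8 measured aldo-keto reductases 2 were higher, against 7.24% of all measured genes, and none was lower. They were AKR1B10 with 1.06 and AKR1B15 with 1.18, both just above the 2-fold line. These 2 are also close paralogs whose probes may share signal, so they may not be separate readings. Of the antioxidant enzymes that the study names as background, CAT, catalase, was at 1206 and 2666 on one probe (1.13) and at 103 and 123 on the other (0.23). SOD1 was at 19715 and 15745 (-0.32) and GPX1 was at 11904 and 14217 (0.26). The study also names peroxiredoxin and methionine reductase. The listed peroxiredoxins ran from -0.71 in PRDX3 to 0.665 in PRDX4, and MSRA, a methionine sulfoxide reductase, was at 342 and 103 (-1.60). The control genes ACTB and GAPDH had differences of -0.18 and -0.17.

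NRF2 targets and antioxidant enzymes had 7 of 43 genes higher (16.3%, against 7.24% of all measured genes) and 2 lower (4.65%, against 5.75%) with a median of 0.30. HMOX1, heme oxygenase, was at 73.6 in TE13 and 516 in TE13R at 0 h, at 402 and 1931 at 8 h and at 2280 and 1876 at 24 h. GCLM, a subunit of glutamate-cysteine ligase in glutathione synthesis, was at 4428 and 9505 and kept its difference (1.10, 1.25 and 1.30). NQO1 and TXNRD1, which are well-known targets of NRF2, were not higher, with -0.39 and -0.51. Among aldehyde dehydrogenases and retinoid enzymes, 6 of 24 were higher (against the same 7.24%) and none was lower, and the median was 0.50 at 0 h and 0.12 at 8 h. ALDH3A1, an aldehyde dehydrogenase of epithelia, was at 4943 and 27709 at 0 h and at 17956 and 20533 at 24 h. CRABP2, which carries retinoic acid, was at 1409 and 7792. ALDH1A3 had a difference of 0.76 and was not counted as 2-fold higher at 0 h. Of 31 genes of drug efflux and glutathione conjugation, 6 were higher (19.4%) and 2 lower (6.45%), and the medians for 0, 8 and 24 h were 0.47, 0.14 and -0.05. GSTA4, a glutathione transferase that acts on lipid aldehydes, was at 84.0 and 759, and GSTA1 was at -7.15 and 40.0. CYP2J2, a cytochrome P450, was at 106 in TE13 and below 0 in TE13R and was lower at all 3 time points (-2.93, -2.55 and -1.76). GSTA and GSTM genes have close paralogs, so their probes may share signal.

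Growth factor and early response genes differed in both directions, and their counts stand against 7.24% higher and 5.75% lower over all measured genes. Of 33 genes of the EGF receptor family, its ligands and other receptor kinases, 7 were higher (21.2%) and 2 lower (6.06%), with a median of 0.46 at 0 h and -0.02 at 24 h. HBEGF, an EGF receptor ligand, was at 194 and 1086, and EGFR itself was at 2352 and 1955. AXL, a receptor kinase, was at 1309 and 137 on one probe and 936 and 125 on another, and was lower at all 3 time points. NRG1, another ligand of the family, was lower on each of the 4 probes measured at 0 h, the 3 beside the main one running from -2.04 to -1.12. Of 31 immediate early genes 9 were higher (29.0%) and 3 lower (9.68%). FOSB was at 128 and 643 at 0 h, DUSP1 at 521 and 2408, and FOS at 406 and 1291. FOS was lower in TE13R by 24 h, at 7240 and 3491. DUSP6, the phosphatase that answers ERK activity, was at 360 and 67.9 on one probe and at 360 and 58.5 on the other. Of 30 cytokines and NF-kB feedback genes 7 were higher (23.3%) and 1 lower. CXCL8, the chemokine interleukin-8, was at 149 and 1018, PTGS2, cyclooxygenase-2, was at 142 and 981, and IL1RN, the interleukin-1 receptor antagonist, was at 625 and 5250. CXCL8 and PTGS2 kept a 2-fold difference at both later times and IL1RN did not (0.27 and 0.64). HEY1, a target of Notch, was at 60.7 and 734 and was at least 4-fold higher at each time point (3.29, 3.07 and 2.16), while the receptor NOTCH3 was at 452 and 2766 at 0 h and at 1882 and 2308 at 24 h. BMP4, a BMP ligand, was at 375 and 36.5.

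Among mesenchymal genes and genes of neurons and secretory granules more members were lower than higher in TE13R at 0 h. Of 35 mesenchymal genes 8 were lower (22.9%, against 5.75% of all measured genes) and 2 higher, with a median of -0.21. TAGLN, an actin-binding protein of smooth muscle, was at 754 and 119, and it was lower at all 3 time points (-2.51, -3.06 and -2.54). SNAI2, a transcription factor of epithelial-mesenchymal transition, was at 6534 and 2146 at 0 h and at 1590 and 1680 at 8 h. COL4A1, a basement membrane collagen, was at 2575 and 739 at 0 h and at 992 and 775 at 8 h. THBS1, thrombospondin-1, had -1.75 at 0 h and 1.56 at 24 h. Of 18 genes of neurons and secretory granules 8 were lower (44.4%, against 5.75%), and 7 of these were 2-fold lower at all 3 time points (1.43% of all measured genes were), EEF1A2, LHX2, SLC30A3, CPLX1, PCSK1N, SV2A and SCG5. The list holds 4 of the 15 largest differences downward, and it was written with earlier results of these data known. Metallothioneins and zinc transporters had 5 of 17 genes lower (29.4%, against 5.75%) and none higher, with a median of -0.57 at 0 h and -0.15 at 8 h. MT2A, which binds zinc and copper, was at 16494 and 5722, and SLC30A1, the zinc exporter of the plasma membrane, was at 591 and 171 on one probe and 192 and 66.8 on another. The endothelial gene VWF, 940 in TE13R at 0 h, was at 502 and 313 at 24 h.

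**Figure D4:**
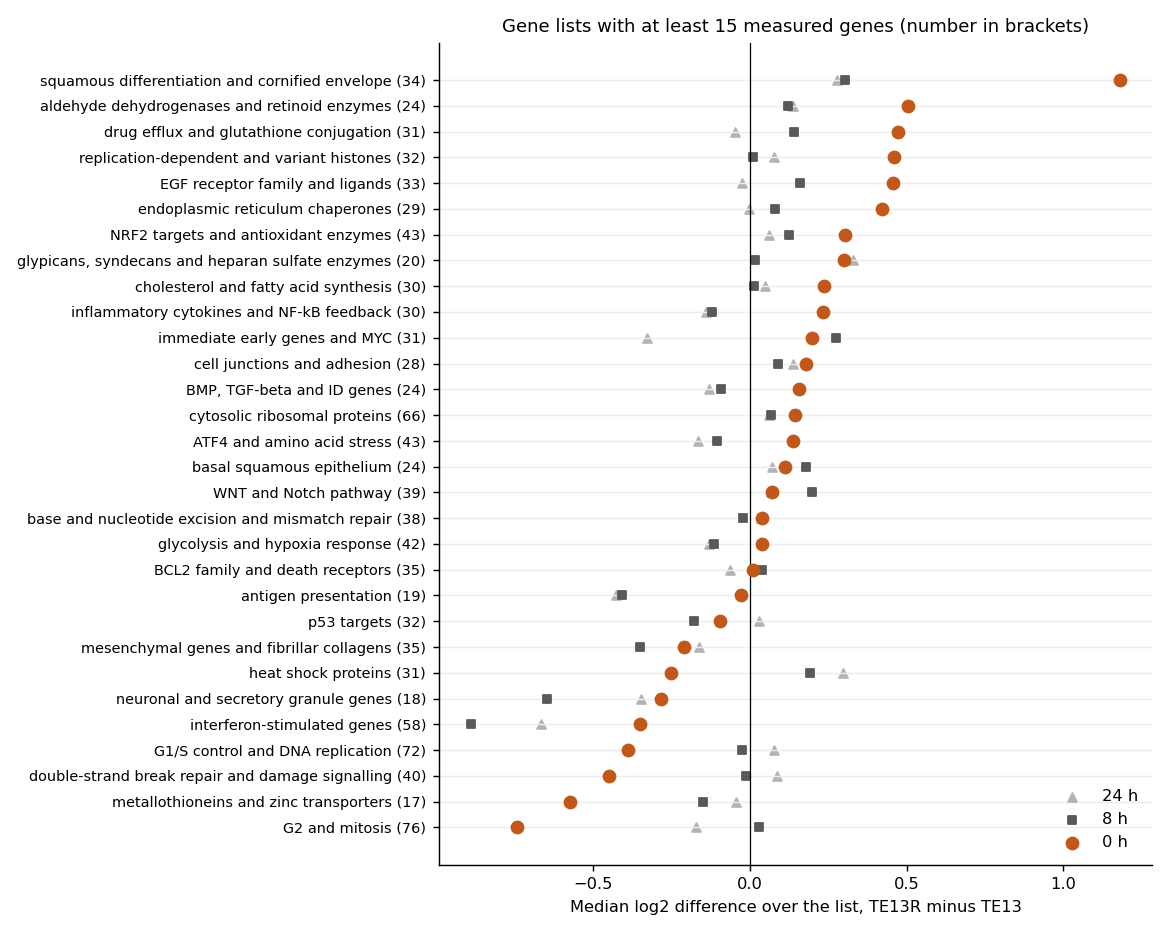
Median log2 difference, TE13R minus TE13, over the measured genes of each list with at least 15 of them, at 0 h (orange circles), 8 h (squares) and 24 h (triangles). At 0 h the medians run from -0.74 for G2 and mitosis to 1.18 for squamous differentiation, and the interferon-stimulated genes lie further below 0 at 8 h (-0.89) than at 0 h (-0.35).

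By chromosome, the measured genes of chromosome 15 stood highest at all 3 time points. Over 369 measured genes its median differences were 0.49, 0.47 and 0.59 in order of time. Of these genes 305 (82.7%) were above 0. At 0 h 81 (22.0%, against 7.24% of all measured genes) were 2-fold higher and 6 (1.63%, against 5.75%) were 2-fold lower. Chromosome 14 had the lowest median at 0 h, -0.33 over 373 genes, with -0.23 at 8 h and -0.18 at 24 h. Chromosomes 13 and 21 were lower at 0 h, with -0.29 and -0.31, but at 0.00 and -0.16 at 8 h. Chromosomes 19 and 7 were the highest after 15, with 0.16 and 0.17, and at 8 h chromosome 19 was at -0.04 while chromosome 7 was at 0.16.

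To look for stretches by the later differences, the genes measured at 0 h were put in the order of the RefSeq annotation of GRCh38.p14, and runs were taken where the running median over 25 genes was at least 0.4 from 0 in the same direction at both 8 h and 24 h. There were 13 such stretches with 1008 genes, 8 higher and 5 lower in TE13R, and the 0 h median had the same sign as the later ones in all 13. On chromosome 7 a stretch from MDH2 to SND1 held 165 genes and the medians for 0, 8 and 24 h were 0.80, 0.68 and 0.74. Of these, 144 lay above 0 at 0 h. The 2-fold higher genes numbered 59 (35.8%, against 7.24% of all measured genes), and none was 2-fold lower (against 5.75%). On chromosome 9 a stretch from NFIB to ANXA1 had a median of 0.53 over 105 genes. Of them 28 (26.7%, against the same 7.24%) were 2-fold higher and 1 was lower. ALDH1A1 lies in this stretch, and its difference of 5.71 was far above the median of its neighbours. Chromosome 15 was covered by 2 stretches, NIPA1 to CCNB2 with 0.48 over 162 genes and PPIB to TARS3 with 0.49 over 187. On chromosome 10 a stretch from REEP3 to RGR was lower, with -0.69 over 80 genes. Of them 23 (28.7%, against 5.75%) were 2-fold lower and 4 (5.0%, against 7.24%) higher. Copy number was not measured.

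**Figure D5:**
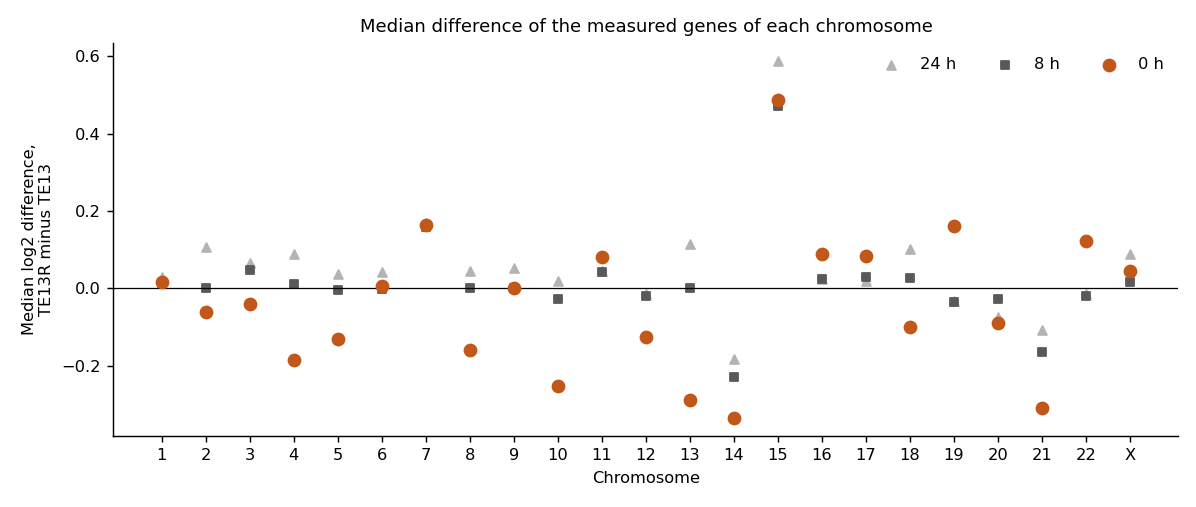
Median log2 difference, TE13R minus TE13, of the measured genes of each chromosome at 0 h (orange circles), 8 h (squares) and 24 h (triangles). Chromosome 15 lies at 0.49, 0.47 and 0.59, apart from all others at each time point, while the lower medians of chromosomes 10 and 13 are seen at 0 h only.

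Genes that moved the same way between the later arrays of both lines were also examined at 0 h. A set was drawn from the 8 h and 24 h arrays alone, after values had been seen, as the genes at least 4-fold higher at 24 h than at 8 h in both lines. Of 141 such genes 132 were measured at 0 h, and 62 of these (47.0%, against 7.24% of all measured genes) were 2-fold higher in TE13R at 0 h while 7 were lower. Their median 0 h difference was 0.89, against 0.00 at 8 h and -0.22 at 24 h. On the log2 scale their median level was 6.49 in TE13 and 7.47 in TE13R at 0 h, 5.57 and 5.15 at 8 h, and 8.60 and 8.24 at 24 h. The TE13R level at 0 h thus lay between those of TE13 at 0 h and at 24 h. Of 23 measured genes that were at least 4-fold lower at 24 h than at 8 h in both lines, 7 (30.4%) were 2-fold lower in TE13R at 0 h and none was higher, and their median was -0.53. With 2-fold in place of 4-fold between 8 h and 24 h, 197 of 726 genes (27.1%) of the first set were higher and 32 lower (median 0.49). In the second set 42 of 370 (11.4%, against 5.75% of all measured genes) were lower and 10 higher (median -0.30). What the RNA, the culture or the line contributed to these differences could not be told apart with 1 array on each side.

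Measured genes were put in 5 equal bins by gene length. The median 0 h difference was 0.15 in the bin of the shortest genes, up to 8637 bases, and -0.10 in that of the longest, from 86361 bases. At 8 h the medians of the same bins were 0.00 and 0.02, and at 24 h they were 0.04 and 0.06. The part of this in the results above was not tested. Brightness made little difference to the median, which lay between -0.03 and 0.01 in 5 bins by mean level, while the share of genes at least 2-fold higher was 7.92% in the dimmest bin and 4.55% in the brightest.

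Second probes of the same gene gave a partly separate reading of the same RNA on the same arrays. For 332 genes at least 2-fold apart, 414 other probes lay above the limit, and 397 of them (95.9%) pointed the same way, 328 (79.2%) at 1.5-fold or more and 234 (56.5%) at 2-fold or more. Over all measured genes 78.3% of 3751 other probes pointed the same way. For the 48 genes at least 4-fold apart with another probe, 63 of 64 probes pointed the same way. Of the 30 largest differences, 23 have no other probe on the array, among them KRT13, KRT4, GPC5, COL5A1 and EEF1A2.

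CG pairs, the sites of DNA methylation, were counted in the promoters. Of 9369 measured genes with a RefSeq promoter of 300 bases, 86.6% had at least 10 CG pairs in it. This share was 64.5% in the genes 2-fold higher at all 3 time points (93 with a promoter) and 75.0% in those lower at all 3 (120 with a promoter). It was 78.1% in genes higher at 0 h and under 1.5-fold apart later, and 93.3% in genes lower at 0 h and under 1.5-fold apart later. The promoters of KRT4 and MYADM, a gene of each direction that was measured in 1 line only at 0 h, are shown with their 5 and 31 CG pairs in capitals. Over the 33 promoters of named genes counted in this way the number ran from 1 in GPR15LG to 59 in PPP2R2C. DNA methylation was not measured.
KRT4, chr12:52814067-52814366, minus strand: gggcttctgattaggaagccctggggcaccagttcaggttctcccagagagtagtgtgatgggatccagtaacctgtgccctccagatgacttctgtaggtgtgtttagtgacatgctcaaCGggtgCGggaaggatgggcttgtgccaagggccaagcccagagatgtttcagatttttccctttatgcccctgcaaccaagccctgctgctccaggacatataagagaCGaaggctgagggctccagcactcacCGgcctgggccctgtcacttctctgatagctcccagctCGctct
MYADM, chr19:53866121-53866420, plus strand: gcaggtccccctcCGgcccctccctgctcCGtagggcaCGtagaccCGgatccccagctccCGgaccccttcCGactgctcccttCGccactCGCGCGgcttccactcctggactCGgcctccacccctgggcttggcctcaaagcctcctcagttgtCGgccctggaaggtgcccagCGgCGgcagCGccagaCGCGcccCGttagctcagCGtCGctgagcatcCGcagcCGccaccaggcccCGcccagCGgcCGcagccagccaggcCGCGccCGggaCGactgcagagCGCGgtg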

How the data were processed

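The authors read the arrays with BeadStudio and deposited background-subtracted intensity values on a linear scale, already brought to 1 scale. The software's version and how the arrays were normalized were not given in the sources used here. No detection p-values were used. Arrays were grouped by their titles. The KY170 pair was not analysed here. The members and gene lists were chosen with earlier results of these data known.

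Of 48803 probes, 27578 have 1 gene symbol in the platform annotation, 13 have several and 21212 have none there. Y-linked genes and XIST were left out. The brightest probe by mean level over the 6 arrays stood for a gene. Negative values were taken as 0, and levels are log2(intensity + 16). The detection limit, 20.2 on each array, is 3 root mean squares of the negative values. It comes from arrays already on 1 scale, so it does not give the noise of a given array. With 1 array on each side no test was made, and a gene was called by a difference of at least 2-fold. The functions were tested on simulated arrays. Python 3.11.15, pandas 2.3.3 and numpy 2.4.6 were used.

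The genes named are those the paper names, the 15 largest differences in each direction, up to 4 members of each list at least 2-fold apart or the 2 largest, the 8 largest among differences gone later and among those kept, and genes that turned. Provisional names were passed over. Any gene beyond these was picked with its values in view. The alternatives tried were other offsets, the limit in place of low values, quantile normalization, centring, other filters, the mean of a gene's probes and other fold thresholds.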

Additional observations from a re-analysis of the deposited data

Results flagged for a closer look

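Of the genes 2-fold apart at 0 h, 3 were at least 2-fold apart the other way at both 8 h and 24 h, and the difference between time points was not tested. All 3 were dim and below the limit in TE13 at 0 h. ALDH3B2, an aldehyde dehydrogenase, was at 14.2 in TE13 and 109 in TE13R at 0 h (2.05) and at 383 and 106 at 24 h (-1.71), and a second probe gave 0.28 at 0 h. RETREG3 was at 5.71 and 31.1 at 0 h (1.12) and at 43.0 and 0.60 at 24 h (-1.83). CAPN5, a calpain protease, was below the limit in TE13 and at 44.2 in TE13R at 0 h (1.11) and at 154 and 23.5 at 24 h (-2.11). With an offset of 64 the 0 h differences were 0.74 for ALDH3B2, 0.45 for RETREG3 and 0.51 for CAPN5. No gene 2-fold lower at 0 h turned in this way.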

How the results depend on the processing

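The counts depend on the offset and on the thresholds. With an offset of 64, 523 genes were 2-fold higher and 383 lower, 140 were 2-fold apart at all 3 time points and 21 of those 4-fold apart at 0 h were gone later, against 827, 657, 279 and 47. With an offset of 1 the count gone later was 97. At 1.5-fold 1890 were higher and 1833 lower, and at 4-fold 157 and 98. With the limit passed on both 0 h arrays 161 were kept and 27 gone, since genes measured in 1 line are left out. With 1.5-fold asked at the later times 503 were kept, and with under 2-fold 83 were gone. The other values of these 4 counts were within 1.5 times, and the share higher among genes 2-fold apart lay between 54.0% and 57.7% in the 9 alternatives to scale, filter and probe. Of 38 list medians, 24 lay above 0, with 21 to 25 under the alternatives. Of 1374 values of 158 named genes under alternatives, 40 crossed the 2-fold line and none changed sign while called. No paired analysis was possible because the labels carry no replicate numbers and each group has 1 array. The number of arrays limits every value, and below 20.2 only bounds can be given.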
